A study of Mus musculus with 24 samples.

Results

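The nuclear envelope genes described here are Lmna, Lmnb1, Lmnb2, Lbr, Emd, Sun1, Sun2, Syne1, Syne2 and Banf1, taken by symbol from the authors' annotation table, 10 of the 55487 genes counted. All 10 passed the filter on low counts that left 14535 genes for testing. The cells were mouse bone-marrow-derived dendritic cells, grown from marrow of male and female mice aged 8 to 10 weeks in medium with GM-CSF, a growth factor that drives dendritic cell production in culture. Control cultures (WT below) were ARPC4 Flox/Flox CD11c-Cre -/-, so they carried the same floxed alleles as the knockout cultures and no Cre. Knockout cultures (KO below) were ARPC4 Flox/Flox CD11c-Cre +/-, in which Cre is driven by the promoter of CD11c, so deletion can begin only once a cell expresses that gene. Arpc4 encodes a subunit of the Arp2/3 complex, which nucleates branched actin. Cells in suspension were sampled on days 7, 8, 9 and 10, with passages on days 4 and 7, and the design asks how differentiation of WT and KO cells compares, with day 10 as full differentiation. The 8 groups, 1 for each genotype and day, held 3 mice each (WT 63, 65 and 66, KO 64, 67 and 68), which gave 24 libraries from 6 mice. RNA was poly(A)-selected and sequenced in pairs with stranded kits of 2 kinds, and which library was made with which kit was not given, so kit and group could not be compared.

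The lamina is a meshwork under the inner nuclear membrane made of A-type lamins (from Lmna) and B-type lamins (from Lmnb1 and Lmnb2). Lbr encodes the lamin B receptor, an inner membrane protein that tethers heterochromatin and also holds a sterol reductase domain, and Emd encodes emerin, a LEM-domain protein of the same membrane. SUN proteins (Sun1, Sun2) cross the inner membrane and join nesprins (Syne1, Syne2) of the outer membrane to form the LINC complex, which couples the lamina to the cytoskeleton, and Banf1 encodes a small DNA-binding protein that gathers LEM-domain proteins on chromatin when the envelope reforms. In leukocytes a lamina low in A-type lamin is known to go with a soft, deformable nucleus.

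RefSeq promoter windows of GRCm38.p6 were matched for 9 of the 10 genes by symbol, in 15 windows, and Lmnb1 had no entry. The 250 bases before the first listed start are shown for Lbr, Lmnb2, Sun1 and Emd. Lbr, Lmnb2 and Sun1 are the members with a window that were higher on day 10 than on day 7 in both genotypes. Emd is the member that moved least. Capitals mark the CCAAT box, the cell cycle homology region TTTGAA, the E2F motifs TTCCCGC and TTTGGCG, the GC box GGGCGG or the CArG box of SRF, searched on both strands, and no 2 matches overlap in these windows. Each starts 5′ on the gene's own strand.
Lbr, minus strand, chr1:181842402-181842651: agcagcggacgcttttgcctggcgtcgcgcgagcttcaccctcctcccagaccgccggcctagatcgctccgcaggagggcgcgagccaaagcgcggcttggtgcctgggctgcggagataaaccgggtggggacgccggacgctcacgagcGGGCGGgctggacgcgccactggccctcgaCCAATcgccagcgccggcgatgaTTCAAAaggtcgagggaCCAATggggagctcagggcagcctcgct
Lmnb2, minus strand, chr10:80918246-80918495: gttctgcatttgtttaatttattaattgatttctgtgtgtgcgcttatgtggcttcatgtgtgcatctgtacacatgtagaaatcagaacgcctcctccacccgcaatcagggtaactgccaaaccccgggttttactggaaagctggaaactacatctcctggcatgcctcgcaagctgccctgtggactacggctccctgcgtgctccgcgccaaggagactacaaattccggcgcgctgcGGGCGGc
Sun1, plus strand, chr5:139200387-139200636: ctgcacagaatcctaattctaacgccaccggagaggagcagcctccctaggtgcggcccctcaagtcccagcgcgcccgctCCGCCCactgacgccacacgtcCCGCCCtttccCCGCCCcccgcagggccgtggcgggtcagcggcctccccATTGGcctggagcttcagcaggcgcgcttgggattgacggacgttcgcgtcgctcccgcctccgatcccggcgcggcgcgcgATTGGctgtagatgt
Emd, plus strand, chrX:74254437-74254686: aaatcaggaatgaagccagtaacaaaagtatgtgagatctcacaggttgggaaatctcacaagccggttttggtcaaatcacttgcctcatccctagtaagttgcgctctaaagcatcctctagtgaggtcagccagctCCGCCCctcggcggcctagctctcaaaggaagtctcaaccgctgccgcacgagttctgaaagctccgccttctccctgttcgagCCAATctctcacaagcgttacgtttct
In GENCODE M21 none of these 4 windows holds exonic bases, and the window of Lbr lies inside the annotated gene while the other 3 are intergenic. Lbr carried CCAAT 68 and 28 bases before its start, TTTGAA on the other strand at 45 bases and a GC box at 98 bases. Sun1 carried CCAAT on the other strand at 97 and 15 bases with 3 GC boxes, Emd carried 1 CCAAT at 27 bases with 1 GC box, and Lmnb2 carried a GC box alone. Lmnb2 and Sun1 each had a second window that is not printed. That window held none of these motifs in Lmnb2 and 1 CCAAT in Sun1. Over all 32817 windows of this length, 33.8% held CCAAT, 16% TTTGAA, 3.82% TTCCCGC, 1.26% TTTGGCG, 32.7% GGGCGG and 1.47% a CArG box. A match is a description of letters and not a site, and none of the 4 printed windows held an E2F motif or a CArG box.

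Library totals ran from 19952047 to 31049798 counts, and a member had between 76 counts (Syne2) and 7980 counts (Sun2) in a library. CPM are read counts relative to the size of the library, with sizes adjusted by TMM factors, and TPM, as deposited, also corrects for gene length. Arpc4 itself (chromosome 6, 113378115 to 113390448) stood at 155 to 182 CPM in KO and 188 to 199 CPM in WT on day 7, and at 173 to 185 against 208 to 242 CPM on day 10. Arpc4 was lower in KO without overlap on each day, but the edgeR adjusted p over all genes was 0.18, 0.69, 0.43 and 0.22 on days 7 to 10, and a gene-level count cannot locate the deleted exons. Over all genes 26.2%, 9.39%, 14.1% and 10.4% had groups without overlap on these days. Arpc4 shares 283 of its 2321 exonic bases with Ttll3 on the same strand, whose count total is 8.87% of that of Arpc4. The dendritic cell markers Itgax and H2-Ab1 had group means of 825 to 1459 CPM and 270 to 972 CPM. Summed macrophage markers ran from 3353 to 10225 CPM and neutrophil markers from 3300 to 7533 CPM, so transcripts of both classes were present. Monocyte markers summed to 323 to 1187 CPM, and erythroid and megakaryocyte markers to 81.3 to 671 CPM. Basophil and mast cell markers summed to 53.0 to 241 CPM, lymphoid markers to at most 6.79 CPM and stromal markers to at most 63.2 CPM.

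The mouse numbers of the KO libraries went against sex-linked transcripts. Ddx3y, a Y-linked gene, was between 56.5 and 83.9 CPM in 1 library of each group and at most 0.136 CPM in the others. In WT that library was always number 63. In KO it was number 64 on days 7 and 9, but 68 on day 8 and 67 on day 10. By this, a KO number cannot be the same animal on all 4 days. Whether libraries were exchanged between days was not tested, and groups are compared by genotype and day as labelled. Where a KO number is left out below, the number is the labelled one, so libraries of different animals are dropped over the days. An exchanged numbering, in which the library with high Ddx3y is number 64 on every day (64 and 68 exchanged on day 8, 64 and 67 on day 10), is given as an alternative. Ddx3y sets number 64 only, so which libraries are 67 and 68 on days 8 and 10 is a choice of this exchange.

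Per transcript length, the most abundant member was Banf1, with a median of 106 TPM over the 24 libraries (range 68.2 to 126), followed by Sun2 (median 102 TPM, 74.3 to 161) and Lmna (72.5 TPM, 49.9 to 110). Lmnb1 had a median of 55.2 TPM and the widest range, 14.3 to 165. Emd had a median of 48.9 TPM (41.3 to 69.9), Lbr 35.7 TPM (13.7 to 77.8), Lmnb2 19.4 TPM (9.91 to 31.2) and Sun1 18.6 TPM (12.4 to 22.7). The nesprin genes were lowest, Syne1 at 8.66 TPM (4.67 to 14.1) and Syne2 at 0.985 TPM (0.34 to 1.78). Neighbours in this order overlapped in range with 1 exception, the gap between Syne1 and Syne2. TPM uses gene lengths that the sources used here do not give, and Syne1 and Syne2 have long and short isoforms that a count per gene merges.

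B-type lamin and Lbr transcripts rose over the 4 days in both genotypes, by 4.97-fold for Lmnb1, 2.97-fold for Lbr and 1.74-fold for Lmnb2 in WT between day 7 and day 10. Sun1 rose by 1.19-fold in both genotypes. In WT 6 of the 10 members were higher on day 10 (these 4, Sun2 and Syne2) and 0 were lower, against a background of 37.0% of all genes called and 18.9% called higher. In KO 4 of 10 were higher (Lmnb1, Lbr, Lmnb2 and Sun1) and 0 lower, against 36.8% called and 19.7% higher. These backgrounds moved with single mice or numbers. The 5376 genes called in WT became 3269 without mouse 66, and the 5353 in KO became 3200 without number 64. The median log2 change of the members was 0.42 in WT and 0.22 in KO, beside -0.02 and 0.00 over all genes tested.

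Lmnb1 (chromosome 18, 56707813 to 56753424, forward strand) encodes lamin B1. In the WT libraries it stood at 20.4, 15.8 and 21.6 CPM on day 7, 44.9, 34.4 and 45.1 on day 8, 98.4, 75.9 and 92.0 on day 9, and 92.9, 84.2 and 110 on day 10, in the order of mice 63, 65 and 66. Each WT day lay above the one before without overlap up to day 9, and days 9 and 10 overlapped. In the KO libraries numbered 64, 67 and 68 it stood at 17.1, 46.2 and 26.7 CPM on day 7, 43.4, 74.5 and 24.97 on day 8, 49.0, 116 and 87.3 on day 9, and 133, 55.0 and 100.7 on day 10. KO libraries of neighbouring days overlapped, and on days 8, 9 and 10 KO libraries lay both below and above the WT range. The SD of the KO groups was 15, 25, 34 and 39 CPM on days 7 to 10, and that of the WT groups 3.1, 6.1, 12 and 13 CPM. By edgeR's quasi-likelihood test the log2 change from day 7 to day 10 was 2.31 in WT (SE 0.39, adjusted p = 0.00012) and 1.68 in KO (SE 0.38, adjusted p = 0.0017). The difference of these changes was -0.63 (SE 0.53, edgeR adjusted p = 0.92), and it was 0.09 without number 67 and -1.23 without number 64. A mouse block under the exchanged KO numbers gave -0.61 (edgeR adjusted p = 0.0079). The KO change was 1.09 without number 64 and 2.41 without number 67, called in both.

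Lbr (chromosome 1, 181815335 to 181843046, reverse strand) followed Lmnb1 closely. WT libraries held 25.3, 24.3 and 28.1 CPM of it on day 7, 45.7, 46.9 and 50.0 on day 8, 71.4, 63.7 and 76.4 on day 9, and 72.2, 70.6 and 88.6 on day 10. The WT days were separate up to day 9. KO libraries numbered 64, 67 and 68 held 28.5, 56.7 and 38.5 CPM on day 7, 48.0, 75.4 and 36.8 on day 8, 54.5, 94.6 and 80.8 on day 9, and 101.1, 53.5 and 82.7 on day 10. On day 7 all 3 KO libraries were above all 3 WT libraries, and on later days the groups overlapped. The log2 change from day 7 to day 10 was 1.57 in WT (SE 0.26, edgeR adjusted p = 0.00011) and 0.94 in KO (SE 0.26, edgeR adjusted p = 0.0072). The KO change was not called without number 64 (log2 0.51) or without number 68 (0.86), nor when only the libraries compared were fitted, and it was 1.45 without number 67. The difference between genotypes was -0.63 (SE 0.36, edgeR adjusted p = 0.85), with -0.13 without number 67 and -1.06 without number 64. A mouse block under the exchanged numbers gave -0.62 (edgeR adjusted p = 0.0038).

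Lmnb2 (chromosome 10, 80901203 to 80918245, reverse strand), the other B-type lamin gene, was higher on day 8 already. WT libraries went from 16.1, 16.8 and 17.5 CPM on day 7 to 27.8, 25.001 and 25.9 on day 8, and stood at 26.4 to 33.3 CPM on days 9 and 10. KO libraries went from 18.7, 18.9 and 16.03 CPM to 25.6, 30.97 and 25.7, and stood at 23.6 to 36.5 CPM afterwards. Day 7 libraries of either genotype lay below every later library. The log2 change from day 7 to day 10 was 0.80 in WT (SE 0.15) and 0.79 in KO (SE 0.14), with edgeR adjusted p of 0.00023 and 0.00028, and it was called under all 15 alternatives tried.

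**Figure D1:**
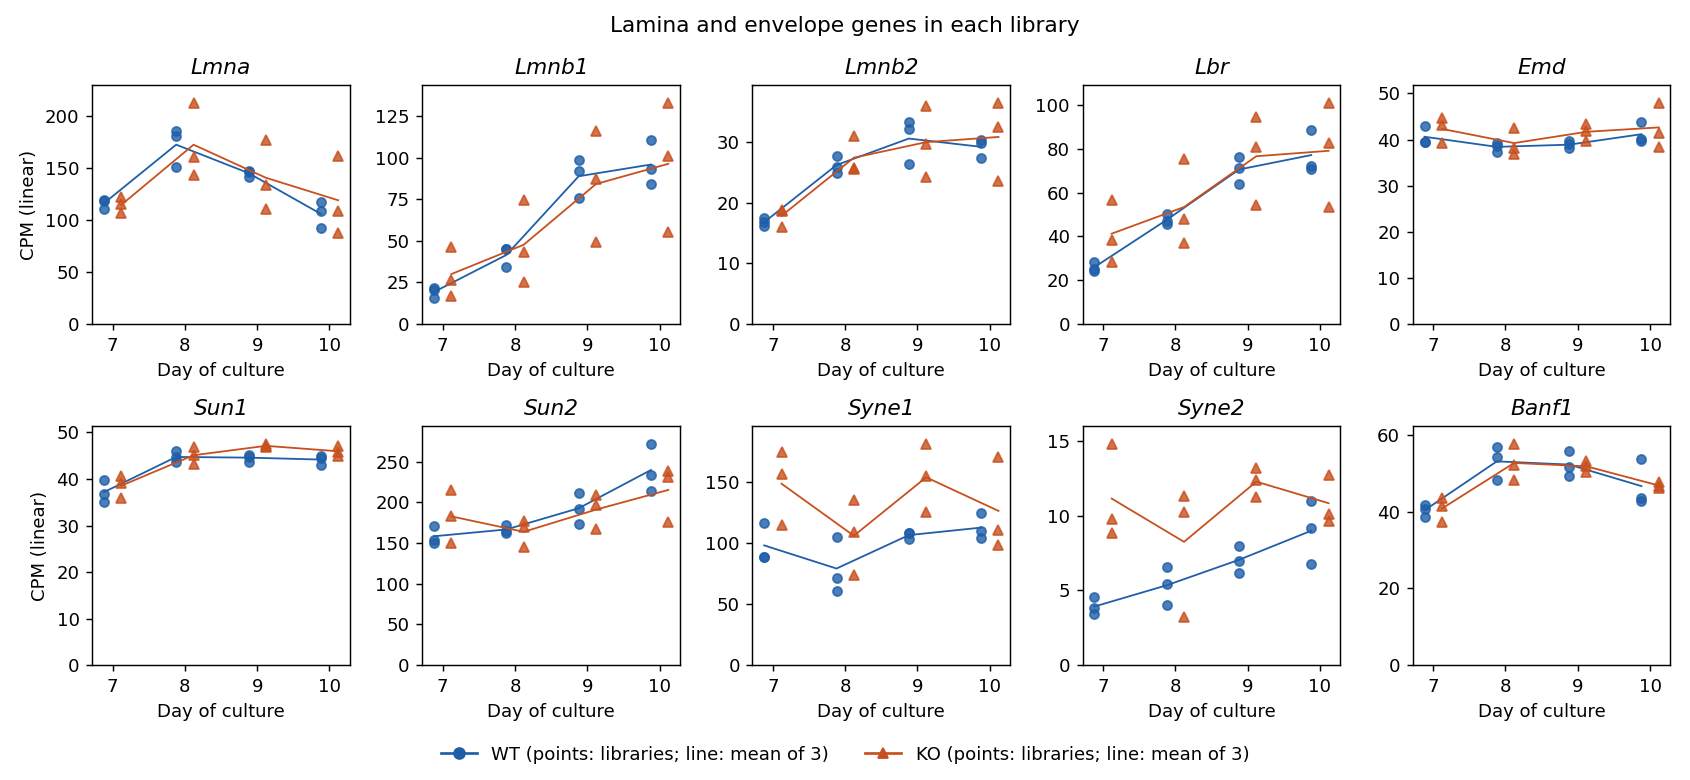
CPM (linear axes from 0) of each member in the 24 libraries by day of culture, with WT libraries as circles, KO libraries as triangles and lines joining the means of 3. Lmnb1, Lbr and Lmnb2 climb from day 7, Lmna peaks on day 8, Emd stays between 37.0 and 48.0 CPM, and KO triangles of Lmnb1 and Lbr are spread more widely than WT circles.

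Between day 7 and day 8 alone, 6 of 10 members rose in WT (Lmna, Lmnb1, Lmnb2, Lbr, Sun1 and Banf1) and 4 in KO (Lmna, Lmnb2, Sun1 and Banf1), with 0 lower in either. The background was 43.4% of genes called and 21.5% higher in WT, and 42.0% called and 21.1% higher in KO. The day 8 and day 10 comparisons share the day 7 libraries and are not independent of each other. For Lmnb1 the day 8 change was 1.11 in WT (SE 0.39, edgeR adjusted p = 0.026) and 0.67 in KO (SE 0.38, edgeR adjusted p = 0.16), and for Lbr it was 0.87 (SE 0.26, edgeR adjusted p = 0.011) and 0.38 (SE 0.26, edgeR adjusted p = 0.26). The WT calls of both genes were lost without any 1 of the 3 WT mice, with log2 changes of 1.09 to 1.15 and 0.85 to 0.91. Over all genes, the 6315 called in WT became 4387, 4600 and 4473 without mouse 63, 65 and 66. With the mouse as a block under the exchanged KO numbers, the KO changes of Lmnb1 and Lbr were called as well (log2 0.65 and 0.37, edgeR adjusted p of 1.7e-06 and 0.00034). Steps from day 8 to day 9 and from day 9 to day 10 gave 0 called members in either genotype by edgeR, where the background was 5.40% and 3.60% of genes in WT and 2.33% and 0.0963% in KO. These shares moved with single mice or numbers: the 785 and 523 genes called in WT became 17 without mouse 66 and 0 without mouse 63, and the 338 and 14 in KO became 21 without number 68 and 2099 without number 67. Without adjustment, p was under 0.05 for 2, 2, 2 and 0 members in these 4 steps. Over all 14535 genes it was so for 3174, 2570, 2721 and 1738. The DESeq2 Wald test called 0 members in each step, and 1325, 822, 898 and 207 of all genes. Under the exchanged numbers with a mouse block, edgeR called Lmnb1 and Lbr from day 8 to day 9 in both genotypes, and Lmna and Sun2 from day 9 to day 10 in WT. That setting also called more of all 14535 genes, 2406 and 1890 in the WT steps and 1925 in the KO step from day 8 to day 9, so these 2 of 10 members stand near the share of all genes. Lmnb1 in WT from day 8 to day 9 had a log2 change of 1.10 (SE 0.37, edgeR adjusted p = 0.086), although the libraries of these days did not overlap.

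Lmna (chromosome 3, 88480147 to 88509956, reverse strand) encodes lamins A and C by alternative splicing, which a count per gene does not separate. It rose from day 7 to day 8 and then stood lower again. WT libraries held 110, 118 and 119 CPM on day 7, 185, 151 and 181 on day 8, 147, 141 and 146 on day 9, and 91.7, 109 and 117 on day 10. KO libraries held 115, 106 and 122 CPM on day 7, 161, 143 and 213 on day 8, 177, 111 and 134 on day 9, and 87.1, 161 and 108 on day 10. Day 8 libraries were above all day 7 libraries of their genotype, and on day 10 WT and KO libraries overlapped with those of day 7. The log2 change to day 8 was 0.57 in WT (SE 0.18, edgeR adjusted p = 0.016) and 0.59 in KO (SE 0.18, edgeR adjusted p = 0.014). The WT call was lost without mouse 63 or 66 (log2 0.48 and 0.57) and the KO call without number 68 (0.46). From day 9 to day 10 the values were -0.46 in WT (SE 0.18, edgeR adjusted p = 0.19) and -0.24 in KO (SE 0.18, edgeR adjusted p = 0.64). Without number 67 this last KO value became -0.68 and was called (edgeR adjusted p = 0.0069), and without number 64 it became 0.15. Over the whole interval the log2 change was -0.13 in WT and 0.05 in KO (SE 0.18 each), not called in either.

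The ratio of Lmna TPM to the summed TPM of Lmnb1 and Lmnb2 sets A-type against B-type lamin transcripts. In WT it was 1.78, 2.19 and 1.79 on day 7, 1.46, 1.48 and 1.45 on day 8, 0.616, 0.761 and 0.650 on day 9, and 0.410, 0.535 and 0.451 on day 10. These WT groups did not overlap on any pair of days, and their means were 1.92 ± 0.24, 1.47 ± 0.015, 0.676 ± 0.076 and 0.465 ± 0.064 (SD, n = 3 each). In KO it was 1.94, 0.909 and 1.64 on day 7, 1.33, 0.758 and 2.52 on day 8, 1.36, 0.399 and 0.628 on day 9, and 0.279, 1.15 and 0.445 on day 10. The KO means were 1.50 ± 0.53, 1.54 ± 0.90, 0.797 ± 0.50 and 0.624 ± 0.46 (SD, n = 3 each), and on days 8, 9 and 10 KO libraries lay on both sides of the WT range. Two-sided exact permutation tests of KO against WT gave p of 0.3, 0.7, 0.9 and 0.9 on days 7 to 10, 0.9 after adjustment over the 4 tests, where 0.1 is the smallest value that 3 against 3 allows.

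**Figure D2:**
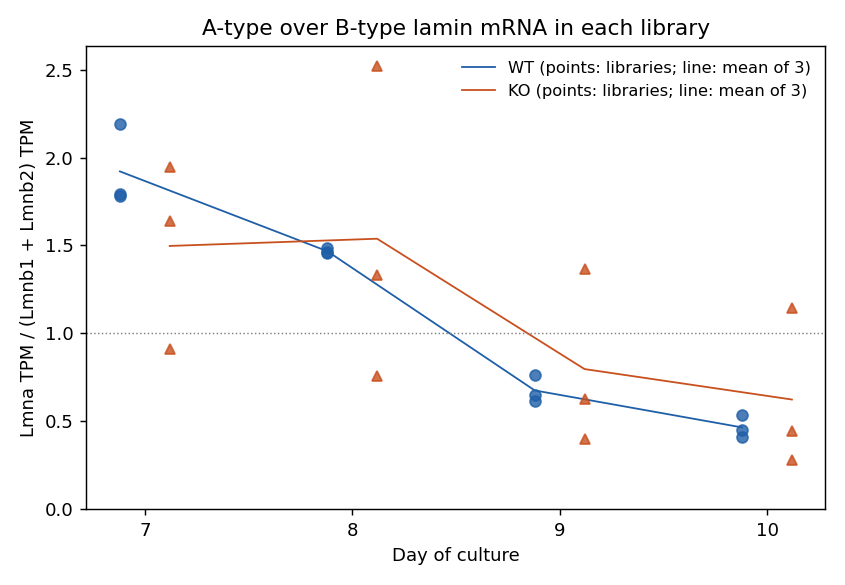
Ratio of Lmna TPM to Lmnb1 plus Lmnb2 TPM in each library (linear axis from 0) by day of culture, with the dotted line at a ratio of 1. WT circles step down from 1.78 or more on day 7 to 0.535 or less on day 10, while KO triangles spread from 0.758 to 2.52 on day 8 and from 0.279 to 1.15 on day 10.

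Sun1 and Sun2, the inner membrane proteins of the LINC complex, differed from each other. Sun1 (chromosome 5, 139200637 to 139249840) stood at 35.0 to 39.9 CPM in WT and 35.9 to 40.5 CPM in KO on day 7, and at 42.9 to 47.5 CPM in every later library. Its log2 change to day 8 was 0.27 in WT (SE 0.06, edgeR adjusted p = 0.00079) and 0.23 in KO (SE 0.06, edgeR adjusted p = 0.0032), and the change to day 10 was 0.25 in both. The WT call on day 10 was lost without mouse 65 (log2 0.20) and the KO calls without number 64 (0.17 on day 8 and 0.19 on day 10) or when only the libraries compared were fitted (0.25 and 0.24). Sun2 (chromosome 15, 79724070 to 79742536) held 154, 150 and 171 CPM in WT on day 7 and 233, 214 and 272 CPM on day 10, with no overlap. Its log2 change was 0.60 in WT (SE 0.13, edgeR adjusted p = 0.0013). In KO it held 150, 215 and 184 CPM on day 7 and 238, 176 and 231 CPM on day 10, which overlap, and the log2 change was 0.24 (SE 0.13, edgeR adjusted p = 0.17). A mouse block under the exchanged numbers called the KO change (0.24, edgeR adjusted p = 0.037), as did limma on log2(TPM + 1) (0.54, adjusted p = 0.0098). These settings called 6480 and 7499 of all genes in this KO interval, beside 5353 in the main fit. On the log2(TPM + 1) scale the median of all genes itself shifted by 0.25 in KO. Without number 67 the KO change of Sun2 was 0.48 and called, and without number 64 it was 0.03. The difference between genotypes was -0.36 (SE 0.18, edgeR adjusted p = 0.82).

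Banf1 (chromosome 19, 5364638 to 5367168) rose from day 7 to day 8. It stood at 38.5 to 41.7 CPM (WT) and 37.2 to 43.7 CPM (KO) on day 7, and at 48.2 to 56.8 CPM (WT) and 48.2 to 57.6 CPM (KO) on day 8, with no overlap between these days. The log2 changes were 0.40 and 0.37 (SE 0.09 each, edgeR adjusted p of 0.0011 and 0.0021). On day 10 its log2 change from day 7 was 0.21 in WT and 0.20 in KO (SE 0.09 each), not called. Banf1 shares 428 exonic bases with Eif1ad on the opposite strand, whose count total is 83.5% of that of Banf1, and the strand setting of the counting is not given in the sources used here, so the level of Banf1 is uncertain. On the log2(TPM + 1) scale, where the median of all genes itself shifted by 0.21 in WT and 0.25 in KO from day 7 to day 10, limma called Banf1 (0.48 and 0.50) and Emd (0.30 and 0.31) higher. Emd (chromosome X, 74254687 to 74261548) stood at 37.0 to 48.0 CPM in the 24 libraries, with log2 changes between -0.11 and 0.10 in the 12 comparisons of groups (SE 0.08 each) and 0 calls by edgeR. The annotated exons of Emd match those of Eif1 over 662 bases at 96.7% identity, and Eif1 had 809% of the counts of Emd, so this level is uncertain too.

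**Figure D3:**
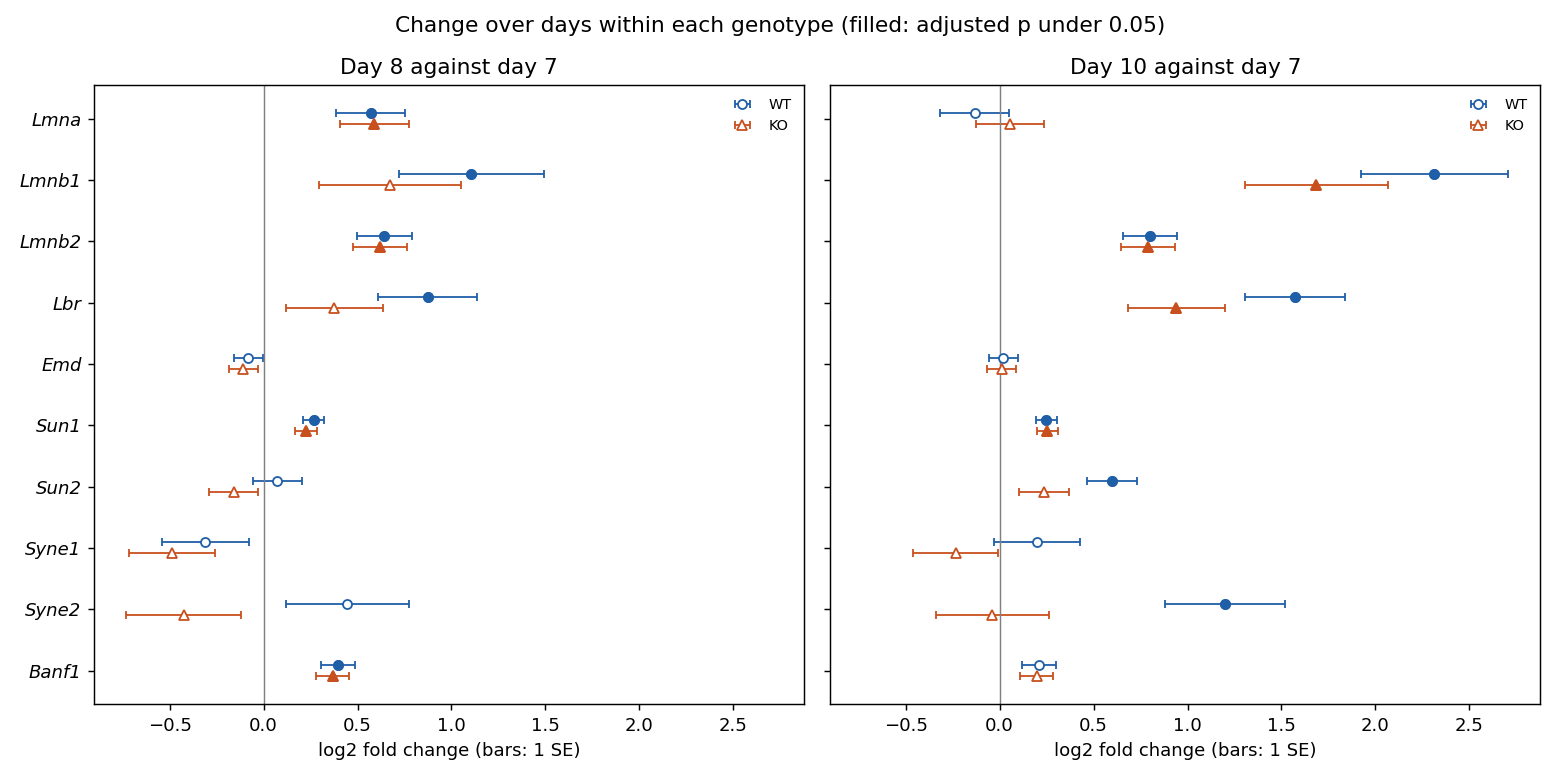
Log2 fold changes (edgeR, bars of 1 SE) of the 10 members from day 7 to day 8 and from day 7 to day 10 in WT (circles) and KO (triangles), filled where the adjusted p was under 0.05. Lmna is shifted right on day 8 and near 0 on day 10, Lmnb1 and Lbr are farthest right on day 10, and for Syne2 the WT and KO points stand apart on day 10 (1.20 and -0.04).

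KO and WT were compared within each day. Syne2, which encodes the giant nesprin-2, was the 1 member of 10 called, and it was called on day 7 alone, higher in KO by 2.84-fold. The edgeR background was 1.45% of genes on day 7, 0.00688% on days 8 and 9 each, and 0.0138% on day 10, where 0 members were called on days 8, 9 and 10. Before adjustment 3, 0, 2 and 0 members had an edgeR p under 0.05 on the 4 days. Over all 14535 genes it was so for 2280, 859, 1185 and 1061. The DESeq2 Wald test called 1, 0, 0 and 0 members, and 523, 17, 98 and 43 of all genes. The median log2 difference of the members was 0.15, 0.05, 0.03 and 0.05, beside -0.01, 0.00, 0.00 and 0.00 over all genes. Groups did not overlap for Lbr and Syne2 on day 7, for Emd, Sun1, Syne1 and Syne2 on day 9 (all higher in KO), and for 0 members on days 8 and 10. Over all genes 26.2%, 9.39%, 14.1% and 10.4% had groups that did not overlap on days 7 to 10.

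Syne2 (chromosome 12, 75818134 to 76110926, forward strand) stood at 3.41, 4.54 and 3.81 CPM in WT and 9.78, 14.8 and 8.83 CPM in KO on day 7. Its counts were the lowest of the members, 76 to 452 in a library, so counting error weighs more here than elsewhere. On day 8 WT libraries held 4.05, 6.55 and 5.42 CPM and KO libraries 10.2, 11.3 and 3.21, the last of these being the lowest of all 24 libraries. On day 9 the values were 6.99, 6.14 and 8.00 in WT and 12.4, 13.2 and 11.2 in KO, and on day 10 they were 9.18, 6.78 and 10.99 in WT and 9.60, 10.1 and 12.7 in KO. WT and KO overlapped on days 8 and 10 and not on days 7 and 9. The log2 difference on day 7 was 1.51 (SE 0.32, edgeR adjusted p = 0.025). The call was lost without WT mouse 63, 65 or 66 or KO number 67 (log2 1.27 to 1.63, edgeR adjusted p of 0.092 to 0.17). It was also lost with the mouse as a block (limma 1.48, adjusted p = 0.063, and 1.49, adjusted p = 0.058 with the exchanged numbers) and on the log2(TPM + 1) scale (0.62, limma adjusted p = 0.089). On days 8, 9 and 10 the log2 differences were 0.64, 0.80 and 0.27 (SE 0.30 to 0.31). From day 7 to day 10 Syne2 rose in WT by 1.20 (SE 0.32, edgeR adjusted p = 0.0059), a call lost without mouse 63 or 66, and in KO the value was -0.04 (SE 0.30, edgeR adjusted p = 0.94). The difference of the changes was -1.24 (SE 0.44, edgeR adjusted p = 0.63), so it was not called. In this test of the difference 0 of 10 members and 0.0619% of all genes passed by edgeR. Syne2 was the 1 member with an unadjusted p under 0.05, beside 917 of 14535 genes. The DESeq2 Wald test called 0 members and 39 of all genes.

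Syne1 (chromosome 10, 5020917 to 5551482, reverse strand), which encodes nesprin-1, was called in none of these comparisons by the edgeR fit. It stood at 88.9, 117 and 88.8 CPM in WT and 157, 175 and 115 CPM in KO on day 7, and at 108, 108 and 103 CPM in WT and 181, 155 and 125 CPM in KO on day 9. The log2 difference of KO from WT was 0.60, 0.42, 0.53 and 0.16 on days 7 to 10 (SE 0.23 each, edgeR adjusted p of 0.20, 0.86, 0.54 and 0.94). In KO it changed by -0.49 from day 7 to day 8 (SE 0.23, edgeR adjusted p = 0.096), which was called with the mouse as a block (-0.50, edgeR adjusted p = 0.013, and -0.46, adjusted p = 0.049 with the exchanged numbers). Syne3, another nesprin gene outside the 10, was higher in KO on day 7 by 0.66 on the log2 scale (SE 0.15, edgeR adjusted p = 0.032), with means of 21.98 CPM in KO and 13.9 CPM in WT. It was the 1 called of 16 tested inner membrane and LINC partners, whose median log2 difference was 0.02, and its call was not recomputed under the alternatives.

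The other members were not called between KO and WT. On day 7 Lbr was at 28.5 to 56.7 CPM in KO and 24.3 to 28.1 CPM in WT, a log2 difference of 0.67 (SE 0.26, edgeR adjusted p = 0.21). For Lmnb1 the day 7 difference was 0.64 (SE 0.39, edgeR adjusted p = 0.44), and by day 10 those of Lbr and Lmnb1 were 0.04 and 0.01 (SE 0.25 and 0.36). For Lmna, Lmnb2, Emd, Sun1, Sun2 and Banf1 the log2 differences lay between -0.16 and 0.21 on the 4 days, each under 2 SE. Markers of other cell classes were read beside the day 7 differences. Summed proliferation markers were at 539 to 914 CPM in KO and 412 to 469 CPM in WT, with a median log2 difference of 0.94 and 0 of 22 genes called. Monocyte markers were at 548 to 1187 and 485 to 711 CPM (median 0.79, 1 of 6 called), and basophil and mast cell markers at 80.8 to 241 and 74.6 to 95.3 CPM (median 0.82, 0 of 6 called). Dendritic cell and neutrophil markers had medians of 0.44 and 0.42 with 0 of 12 and 0 of 13 called. Macrophage markers had a median of 0.21 with 1 of 12 called, erythroid and megakaryocyte markers 0.51, lymphoid markers -0.21 and stromal markers -0.84, the last 3 with 0 called. The part of these classes in the results was not tested. In RNA from whole cultures a smaller share of a cell type and less RNA per cell cannot be told apart.

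**Figure D4:**
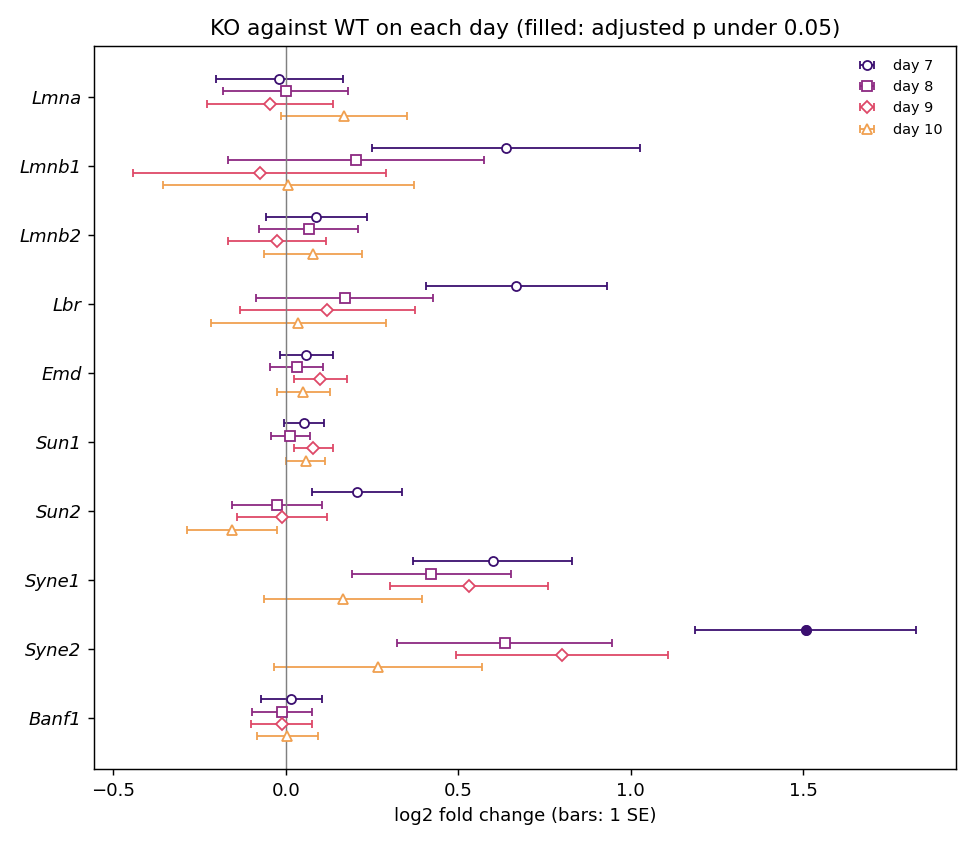
Log2 fold changes of KO against WT (edgeR, bars of 1 SE) for the 10 members on days 7, 8, 9 and 10, filled where the adjusted p was under 0.05. Syne2 on day 7 (1.51) is the 1 filled point, and the points of Lmna and Banf1 lie between -0.05 and 0.17.

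Genes most like each member were read from log2 CPM over the 24 libraries, among 10540 genes, as a description with no test, since the libraries share mice and days. Lmnb1 was nearest to Ccnb1 (r = 0.988), Fignl1 (0.987) and Cdc20 (0.985), and Ccnb1 and Cdc20 are regulators of mitosis. Lbr was nearest to Lmnb1 itself (r = 0.983), then Spn (0.980) and Bub1 (0.979). Lmnb2 was nearest to Hnrnpa1 (0.971), Nup85 (0.970) and Sf3a3 (0.966), which encode an RNA-binding protein, a nuclear pore subunit and a splicing factor. For Lmna the nearest were Cndp2 (0.951), Uap1l1 (0.947) and Pkm (0.944), and its r with Lmnb1 was -0.228. Sun1 was nearest to Olfm1 (0.951), Sun2 to Srebf1 (0.949), Banf1 to Smdt1 (0.944), Syne2 to Akap13 (0.920), Emd to Rcsd1 (0.903) and Syne1 to Notch1 (0.851). Among the members themselves, Syne1 and Syne2 had r = 0.738 with each other, and Syne1 had 0.139 with Lmnb1.

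The 22 proliferation markers, such as Mki67, Top2a and Cdk1, moved with Lmnb1 and Lbr. Their summed level was 412 to 469 CPM in WT on day 7, 626 to 761 on day 8, 1285 to 1640 on day 9 and 1526 to 1982 on day 10. In KO it was 539 to 914, 473 to 1171, 1019 to 1981 and 1139 to 2398 CPM on these days. From day 7 to day 10, 21 of 22 were called higher and 0 lower in each genotype, with median log2 changes of 2.65 in WT and 1.70 in KO. On day 10 the KO libraries with 133, 55.0 and 100.7 CPM of Lmnb1 had 2398, 1139 and 1954 CPM of these markers, and on day 8 those with 43.4, 74.5 and 24.97 CPM had 754, 1171 and 473. The KO libraries of each of these days had the same order in both measures. Summed dendritic cell markers had that order too, at 9090, 5129 and 6861 CPM on day 10 and 3792, 5174 and 2905 on day 8. Macrophage markers ran in the reverse order, at 3353, 5054 and 4003 CPM on day 10 and 5966, 4393 and 7441 on day 8. Between day 7 and day 10, 8 of 12 dendritic cell markers were called higher and 0 lower in each genotype (median log2 1.35 in WT and 1.09 in KO). Of 12 macrophage markers, 1 was higher and 8 lower in WT, and 1 and 9 in KO (median -0.71 and -0.72). Neutrophil markers had 5 of 13 higher and 2 lower in WT, and 0 and 3 in KO (median 0.48 and -0.004). Of 4 tested erythroid and megakaryocyte markers, 2 were lower in WT and 3 in KO, with 0 higher (median -1.28 and -2.05). Stromal markers had 1 of 6 higher and 2 lower in WT, and 1 and 0 in KO (median -1.26 and -1.09). Monocyte markers had medians of 0.19 and -0.63. The part of proliferating cells or of these other cell classes in the results was not tested.

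**Figure D5:**
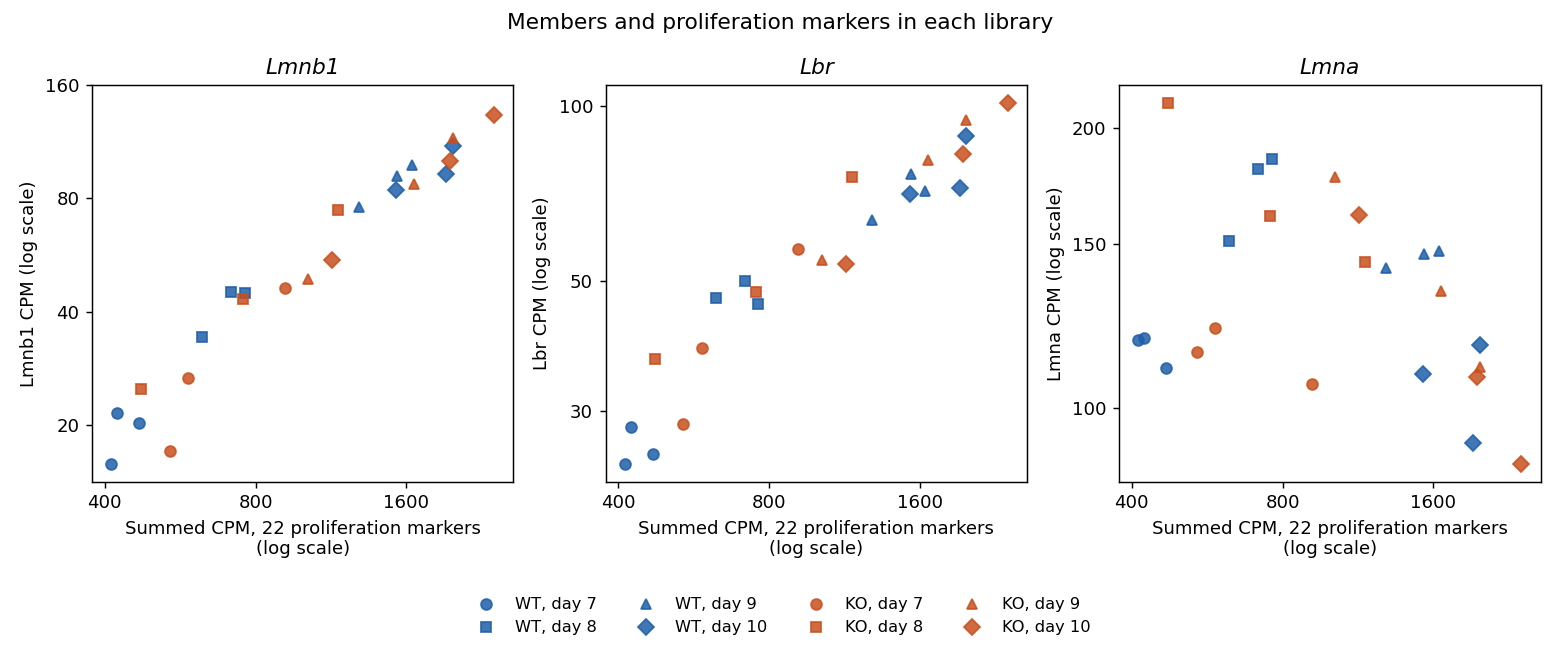
CPM of Lmnb1, Lbr and Lmna in each library against the summed CPM of 22 proliferation markers, both on log scales, with WT in blue, KO in orange and a symbol for each day. Lmnb1 and Lbr rise along the axis from 412 to 2398 CPM of markers, and Lmna is highest (213 CPM) in the KO library of day 8 with 473 CPM of markers.

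Partners of the envelope genes were read from lists, beside the 18.9% of all genes called higher in WT and 19.7% in KO, and 37.0% and 36.8% called in either direction. Of 16 tested inner membrane and LINC partners, 5 were higher and 1 lower on day 10 than on day 7 in WT, and 4 and 0 in KO, with median log2 changes of 0.04 and 0.12. Tmpo, which encodes the LAP2 proteins that bind lamins, rose by 0.90 in WT (SE 0.22) and 0.74 in KO (SE 0.22), with edgeR adjusted p of 0.003 and 0.012. Lemd2, a LEM-domain gene, fell by 0.30 in WT (SE 0.09, edgeR adjusted p = 0.011). Among 14 genes of lamin processing and lamina kinases, 2 were higher and 1 lower in each genotype. Vrk1, a kinase that phosphorylates the Banf1 product, rose from a mean of 17.97 CPM to 122 in WT and from 28.8 CPM to 132 in KO. On the log2 scale that is 2.76 (SE 0.37) and 2.20 (SE 0.36), with edgeR adjusted p of 1.2e-05 and 9.9e-05. Of the protein kinase C genes, Prkca rose by 0.85 in WT and 0.59 in KO (SE 0.09 each, edgeR adjusted p of 1.1e-06 and 5.5e-05). Prkcb fell by 0.67 in WT (SE 0.12, edgeR adjusted p = 0.00026) and 0.38 in KO (SE 0.12, edgeR adjusted p = 0.019). Of 28 nuclear pore genes tested, 21 were higher in WT and 24 in KO with 0 lower, among them Nup210 (1.58 and 1.33) and Ndc1 (1.11 and 1.09), which encode membrane-spanning nucleoporins.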

How the data were processed

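The 24 RNA-seq libraries (6 mice, 4 days, 2 genotypes) were read from 1 table of counts per gene and 1 table of TPM. The authors deposited both, as whole-number counts that are not normalized and as TPM, for 55487 genes, and per the submitters' processing notes STAR 2.6.1, FastQC 0.11.9, DESeq2 1.22.2 and mm10 were used. How the counting treated strand and multiply mapped reads, and the gene lengths behind TPM, are not given in the sources used here. Of the gene identifiers, 55094 matched GENCODE M21 (GRCm38), which gave the coordinates.

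Counts were tested with edgeR 4.0.16 in R 4.3.3: TMM factors (0.877 to 1.13), filterByExpr, 1 coefficient per group, quasi-likelihood F-tests on all 24 libraries with 16 residual degrees of freedom, and Benjamini-Hochberg adjustment over 14535 genes. Calls are at an adjusted p under 0.05, tests are two-sided, and the SE was derived from the fold change and the F statistic. The script was tested on simulated counts. Promoter letters were searched in Python 3.11.15 and near-identical exons were found with BLAST 2.17.0. Alternatives were DESeq2 1.42.0, limma 3.58.1 on log2(TPM + 1), other filters, an Xist covariate, each labelled mouse number left out, and the mouse as a block (fixed terms in edgeR between days, limma's duplicate correlation between genotypes). The 10 members, the gene lists and the rule for named genes (all members, and of each list the 2 largest called changes in each direction) were chosen with earlier results of these data known. Some genes of these lists that the rule would name are not reported here.

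The labels give each library a mouse number, and the mean correlation of deviations from the group mean between same-numbered libraries was 0.271 in WT, 0.018 in KO as labelled and 0.472 in KO after the exchange (10593 autosomal genes, 18 pairs each). By Ddx3y, the labelled KO numbers cannot each be 1 animal on all 4 days. Which libraries are misnumbered was not settled beyond this exchange.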

Additional observations from a re-analysis of the deposited data

How the results depend on the processing

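Lmnb2 was called from day 7 to day 8 and to day 10 in both genotypes under all 15 alternatives, as were Lmnb1 from day 7 to day 10 in both genotypes, Banf1 from day 7 to day 8 in both, and Sun1 from day 7 to day 8 in WT. Between KO and WT on day 7, 1 member was called, against 0 with limma on log2(TPM + 1), 0 with the replicate block, 0 with the block under exchanged KO numbers, and 0 to 1 with 1 labelled mouse number left out. In WT the members called from day 7 to day 8 were 6, and 3 to 6 with a number left out. From day 8 to day 9 in WT they were 0, then 1 with no filter on low counts, 2 with only the libraries compared, 2 with the exchanged block and 0 to 2 with a number left out. From day 9 to day 10 in WT they were 0, then 1 with only the libraries compared, 2 with the exchanged block and 0 to 1 with a number left out. In KO they were 4 from day 7 to day 8, then 3 with only the libraries compared, 5 with the replicate block, 7 with the exchanged block and 3 to 4 with a number left out. From day 8 to day 9 in KO they were 0, then 2 with the exchanged block and 0 to 1 with a number left out, and from day 9 to day 10 they were 0, and 0 to 1 with a number left out. From day 7 to day 10 in KO they were 4, then 2 with only the libraries compared, 7 with limma on TPM, 5 with the exchanged block and 2 to 5 with a number left out. In WT over that interval they were 6, then 8 with limma on TPM and 5 to 6 with a number left out. The difference between genotypes had 0, and 2 with the exchanged block. The cause of these shifts was not tested. Counts over all genes moved as well. The exchanged block raised them for KO from 6110 to 7262 to day 8 and from 5353 to 6480 to day 10. It raised them from 9 to 260 for the difference between genotypes. Limma on TPM raised them to day 10 from 5376 to 6877 in WT and from 5353 to 7499 in KO. With only the libraries compared, they fell in KO from 6110 to 4524 to day 8 and from 5353 to 3340 to day 10. That setting raised them in WT from 785 to 2123 between days 8 and 9 and from 523 to 774 between days 9 and 10. The lowest counts from day 7 to day 10 with a number left out were 3269 in WT and 3200 in KO. From day 7 to day 8 the main fit called 6315 genes in WT and 6110 in KO. With a number left out these were 4387 to 6961 in WT and 4662 to 5759 in KO. The replicate block gave 6044 in KO. Over all genes, KO against WT on day 7 gave 211 calls. These became 120 with limma on log2(TPM + 1), 145 with the replicate block and 179 with the exchanged block. They became 523 with the DESeq2 Wald test, 340 with no filter and 11 to 352 with a number left out. On days 8, 9 and 10 the counts were 1, 1 and 2, and 17, 98 and 43 with the DESeq2 Wald test. With no filter they were 25, 90 and 43, and with a number left out 1 to 37, 1 to 3 and 1 to 80. The block as labelled changed no member's call other than those of Syne2 and Syne1 given above. Each group had 3 mice, so a single library can move a KO mean of Lmnb1 or Lbr, and Syne2, with 76 to 452 counts in a library, carried the most counting error.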

Other observations

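Other gene groups around the envelope were read from day 7 to day 10, where 37.0% of all genes were called in WT and 36.8% in KO, 18.9% and 19.7% higher. Of 7 heterochromatin genes linked to Lbr, 4 were higher in WT and 6 in KO, by edgeR. Suv39h2 and Suv39h1, which encode histone H3 lysine 9 methyltransferases, had log2 changes of 2.05 (SE 0.37) and 1.24 (SE 0.21) in WT and 2.03 (SE 0.36) and 1.01 (SE 0.21) in KO. Of 9 genes of late sterol synthesis, where Lbr has its reductase role, 8 were higher in WT and 6 in KO with 0 lower. Hsd17b7, a reductase of cholesterol synthesis, rose by 1.47 in WT and 1.10 in KO (SE 0.12 each). Of 13 genes of the ESCRT machinery that reseals the envelope, 0 were higher, 2 were lower in WT and 4 in KO. Chmp1b fell by 0.37 in WT and 0.32 in KO (SE 0.07 each). The median log2 changes of these 3 lists were 0.48, 0.65 and -0.12 in WT and 0.52, 0.34 and -0.11 in KO, beside -0.02 and 0.00 over all genes. None of the 3 lists had a called gene in the test of the difference between genotypes.

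Under the exchanged KO numbers, Lmnb1 read 17.1, 24.97, 49.0 and 55.0 CPM on days 7 to 10 for number 64, 46.2, 74.5, 116 and 133 for number 67, and 26.7, 43.4, 87.3 and 100.7 for number 68. The 3 series kept 1 order on every day, number 67 highest and number 64 lowest, where Ddx3y sets number 64 only. Lbr read 28.5, 36.8, 54.5 and 53.5 CPM for number 64, 56.7, 75.4, 94.6 and 101.1 for number 67, and 38.5, 48.0, 80.8 and 82.7 for number 68, in the same order. Lmna read 115, 213, 177 and 161 CPM for number 64, 106, 143, 111 and 87.1 for number 67, and 122, 161, 134 and 108 for number 68, with number 64 highest from day 8 on.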
